A study of Mus musculus with 2 samples.

Results

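Expression of the nuclear genes of mitochondrial oxidative phosphorylation was described in the cervical loop (CL) of the mouse incisor with and without epithelial Med1. Members were all array probes whose gene symbol in the platform annotation began with Nduf, Uqcr, Cox4i, Cox5, Cox6, Cox7, Cox8 or Atp5, or was Sdha, Sdhb, Sdhc, Sdhd, Cyc1 or Cycs. This took 110 of 25697 probes, which stood for 87 of 16593 named genes. The rule used gene names and no measured value. Besides subunits it took in 5 assembly factors of complex I (Ndufaf genes), the supercomplex factor Cox7a2l and the pseudogene Ndufs5-ps. Sdha had no probe under that symbol, and none of the 13 subunit genes on mitochondrial DNA was found on the array by the symbols searched.

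The CL lies at the root end of the incisor, which grows throughout life, and holds the stem cells of the dental epithelium. Both samples came from C57BL/6 mice at 10 weeks of age that were homozygous for a floxed Med1 gene (MED1 fl/fl). The KO sample also carried K14Cre, a Cre recombinase driven by the keratin 14 promoter, and the sample labelled WT had the floxed alleles without it. Med1 encodes a subunit of Mediator, which links transcription factors to RNA polymerase II. Each sample combined the dissected lower incisor tissue of 3 mice, and there was 1 sample per genotype. Cre from this promoter acts in epithelial cells, so the vessel, blood and connective tissue cells of the piece would keep Med1. Med1 was not measured by cell type here. Both samples are labelled CL, while a general note in the labels speaks of hair-forming dental tissue, and none of the sources used here gives the share of such tissue.

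Oxidative phosphorylation takes place in the inner mitochondrial membrane. Electrons from NADH enter at complex I and those from succinate at complex II, pass through coenzyme Q to complex III and by cytochrome c to complex IV, and end on oxygen. Complexes I, III and IV pump protons as they do so, and complex V, the ATP synthase, lets the protons flow back to make ATP. Most subunits are encoded in the nucleus, the pathway runs in nearly every cell type, and its transcripts are most abundant in tissues such as heart and skeletal muscle.

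RNA was hybridized to an Illumina mouse bead array. A level below is the log2 of the intensity after background correction and quantile normalization, a ratio is the KO level minus the WT level, and raw intensities are those before normalization. A gene was called detected when its brightest probe stood above the negative controls (detection p under 0.01) in at least 1 sample. With 1 sample per genotype no test between them was possible, so every difference describes a pair of samples and carries no error between animals. As a guide to measurement error, ratios from separate probes for a gene were set side by side in 1791 genes, which gave an SD per probe of 0.22 on the log2 scale. Probes of a gene share the samples, so this SD leaves out error between samples. Raw intensity of bright probes was lower in the KO sample, with a 95th percentile of 1393 in WT and 1229 in KO. Under quantile normalization the median ratio of all 8378 detected genes was 0.00. When the samples were scaled by their medians instead, it became -0.13, so that many small positive ratios turned negative, and such cases are given where they arise.

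Med1 itself read 245.9 in WT and 172.9 in KO before normalization, with a ratio of -0.80 (-0.46 in the authors' normalized values) and 1 of its 4 probes detected. Of 12 dental epithelial markers 9 were detected, 2 with ratios above 0 and 6 below, with a median of -0.10 and a summed level of 15.86 in WT and 15.79 in KO. The lowest were Shh at -0.67 and Lrig1 at -0.62 (-0.44 in the authors' values), both past 1.5-fold lower, and Krt14 and the enamel matrix gene Amelx had ratios of 0.01 and 0.00. The stem cell markers Sox2 and Lgr5 were not detected. The 7 neutrophil markers were all higher in the KO sample, with ratios from 0.91 to 1.60 (0.52 to 1.05 in the authors' values). The authors' paper proposes that S100a8 and S100a9, both on this list, act in calcium-driven epidermal differentiation, so they are not particular to neutrophils. The 6 fat markers were not detected. The summed level of 4 endothelial markers was 10.60 in WT and 10.02 in KO. Of their ratios 2 lay above 0 and 2 below, from -0.78 for Vwf to 0.22 for Kdr, which was detected in KO only. The sum of 3 erythroid markers was 14.14 and 13.78, with 1 ratio above 0 (Slc4a1 at 0.42) and 2 below. Each sum follows its brightest gene, Vwf at 1337 and 724 and Hba-a1 at 18394 and 13158 before normalization. Of 4 dental mesenchyme markers 2 were detected, with a summed level of 12.00 in WT and 12.30 in KO. Their ratios were 0.30 for Msx1 and 0.23 for Nes, the latter 0.07 with its probes averaged. The part of these cell types in the ratios of the members was not tested. In tissue of mixed cells such as this, fewer cells of a type and less RNA per cell cannot be told apart.

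The oxidative phosphorylation genes differed little between the samples, and the small differences were more often toward higher levels in KO under quantile normalization, though not under median scaling. Of the 87 genes, 75 were detected, 74 of them in both samples. Ratios ran from -0.55 to 0.63, with a median of 0.09 and a central 50% between -0.06 and 0.14, where all detected genes had a median of 0.00 and a central 50% between -0.16 and 0.17. A total of 46 members lay above 0, 27 lay below and 2 were at 0.00. The exact binomial 95% interval of the members' share above 0, 49.4% to 72.4%, covers counting over genes only. It treats genes read on the same samples as independent. The share itself was 61.3%, beside 50.1% of all genes, of which 49.7% lay below. Under median scaling this share fell to 29.3% of members and 30.6% of all genes, and 45 of the 75 members then lay above the median of all genes.

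One member, Cox7a1, was past 1.5-fold higher in KO and none was past 1.5-fold lower, where 3.02% of all detected genes were past this limit upward and 2.92% downward (5.94% in either direction). At a lower limit of 0.32 on the log2 scale, 3 members were higher and 2 lower, which is 6.67% of them. Of all genes 23.2% were past it, 11.5% upward and 11.7% downward. Most members are bright on the array. The brightest 25% of detected genes held 51 of the 75 members. None of these 51 was past the lower limit, where 8.35% of all genes of that brightness were. The ratio of 57 members (76%) was smaller than the SD per probe, beside 62.4% of all genes. Before normalization 56 of the 75 members (74.7%) read lower in KO, as did 67.8% of all genes.

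**Figure D1:**
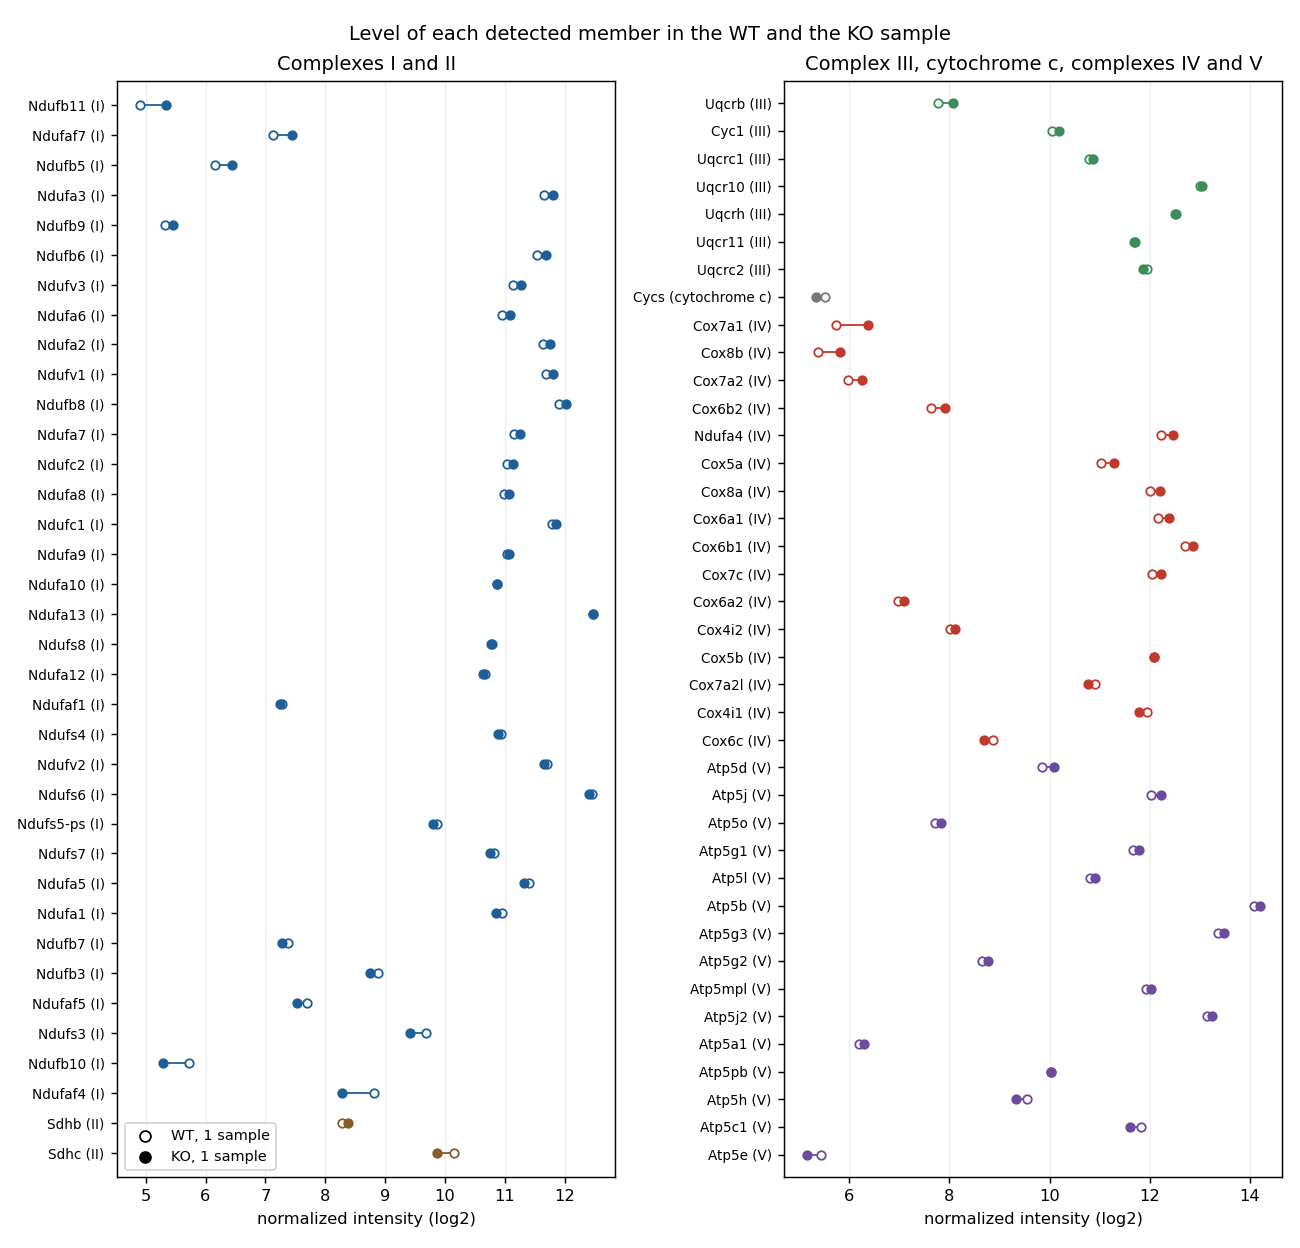
Level of the 75 detected members in the WT sample (open circle) and the KO sample (filled circle), as log2 of normalized intensity on the horizontal axis, with 1 sample per genotype, the complex in brackets and genes of each complex in the order of their ratio. The circles of most genes touch or overlap, and those of Cox7a1, Ndufaf4, Cox8b, Ndufb10 and Ndufb11 lie farthest apart. Levels of different genes come from different probes and cannot be set against each other.

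The plot of levels shows that the genes with the widest gaps, other than Ndufaf4, sat at the dim end of the array. Both samples read under 200 units before normalization in 10 detected members. Without these 10, which was tried after the data were seen, the median ratio of the members was still 0.09 and none was past 1.5-fold. The 5 brightest members had small ratios. Atp5b, the catalytic beta subunit of the ATP synthase, read 18323 in WT and 18257 in KO. Atp5g3, a c ring gene, read 11103 and 10761, Atp5j2, a membrane subunit of the ATP synthase, 9596 and 9369, and Uqcr10, a small subunit of complex III, 8771 and 8068. Cox6b1, a subunit of complex IV that faces the intermembrane space, read 7020 and 7160. Their ratios after normalization lay between 0.05 for Uqcr10 and 0.17 for Cox6b1, all within the SD per probe of all genes (0.22). Under median scaling those of Atp5g3, Atp5j2 and Uqcr10 were below 0.

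Complex I was centred on no difference. Of its 39 listed genes 34 were detected, with 17 ratios above 0, 16 below and a median of 0.00, equal to that of all genes. The 5 core subunits detected, which include those that hold the flavin and most iron-sulfur clusters, had a median of -0.05 with 1 of them above 0. The 24 accessory subunits detected had a median of 0.07 with 15 above 0, of which 4 stayed above 0 under median scaling. Ndufs1, the largest core subunit, and the accessory genes Ndufab1, Ndufb2 and Ndufb4 were not detected, nor was the assembly factor Ndufaf3.

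Ndufaf4, an assembly factor of complex I, had the lowest ratio of all members. It read 562.1 in WT and 379.3 in KO before normalization, at levels of 8.82 and 8.27. The ratio was -0.55, or 1.46-fold lower in KO, and it was -0.45 in the values the authors had normalized. The other assembly factors detected did not share one direction, with -0.17 for Ndufaf5, -0.03 for Ndufaf1 and 0.32 for Ndufaf7. Ndufaf7 read 230.1 in WT and 254.3 in KO, and its ratio was 0.20 in the authors' values.

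The promoter of Ndufaf4 is shown because the gene had the lowest ratio and its window holds a motif of the respiratory factor NRF1. Promoter windows run from 250 bases before to 50 after the RefSeq start of a gene in GRCm38.p6, and the window of Ndufaf4 is chr4:24897833-24898132 on the plus strand. Capitals mark the NRF1 palindrome, which is GCGCA followed directly by its reverse complement TGCGC.
Ndufaf4: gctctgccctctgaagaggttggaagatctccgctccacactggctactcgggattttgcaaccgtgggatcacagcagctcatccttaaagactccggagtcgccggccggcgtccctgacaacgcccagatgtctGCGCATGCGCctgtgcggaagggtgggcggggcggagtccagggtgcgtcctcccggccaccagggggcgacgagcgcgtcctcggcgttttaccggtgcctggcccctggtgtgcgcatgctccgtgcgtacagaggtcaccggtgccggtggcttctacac

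Such windows were at hand for 71 of the 87 members and for 27025 genes in all, and were searched on both strands. The palindrome was in 6 of 71 members (8.45%) and in 1.07% of all windows, the others being Atp5g2, Atp5k, Cox6a1, Ndufaf5 and Uqcrc1. A looser form, in which the base after GCGCA is free and GCGC follows it, contains the palindrome and was in 22.5% of members and 5.19% of all. CCGGAAG, the core bound by ETS factors such as GABPA, was in 23.9% and 9.93%, the YY1 motif AAGATGGC in 14.1% and 3.19%, and the ERR motif AAGGTCA in 9.86% and 5.38%. A match gives letters in a window and says nothing of binding. All windows include those of genes not detected here, and shares among detected genes alone were not taken. Of the 5 detected genes with the palindrome, Ndufaf4 and Ndufaf5 had ratios below 0, and Atp5g2, Cox6a1 and Uqcrc1 had ratios of 0.11, 0.21 and 0.08, of which only Cox6a1 stayed above 0 under median scaling. The members without an entry were Atp5a1, Atp5mpl, Cox4i1, Cox4i2, Cox6a2, Cox6c, Cox8c, Cyc1, Ndufa2, Ndufb9, Ndufs1, Ndufs5-ps, Sdhc, Uqcrb, Uqcrc2 and Uqcrq.

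Ndufs3, a core subunit of the arm of complex I that projects into the matrix, read 963.9 in WT and 728.8 in KO, a ratio of -0.27. Ndufs4, an accessory subunit of that arm, was read by 4 probes, all lower in KO, with ratios of -0.04, -0.21, -0.23 and -0.45 and raw intensities of 2162 and 1856 for the brightest. The detected Ndufs genes of functional subunits (Ndufs3, Ndufs4, Ndufs6, Ndufs7 and Ndufs8), a grouping chosen after the values were seen, all had ratios below 0. Their median was -0.06, and by the brightest probe of each gene only Ndufs3 exceeded the SD per probe. Core genes of the other prefix split, with 0.11 for Ndufv1, which binds NADH (-0.05 under median scaling), and -0.05 for Ndufv2.

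Among accessory subunits, taking the brightest probe of each gene, the widest ratios belonged to dim membrane arm genes. Ndufb10 read 139.0 in WT and 126.6 in KO, a ratio of -0.43 that was -0.15 in the authors' normalized values. Ndufb11 read 114.3 in WT, where it was not detected, and 127.8 in KO, so it was at least 1.06-fold higher in KO. Ndufb5 read 158.4 and 171.2, with a ratio of 0.28 that was 0.14 in the authors' values. These genes sit close to the background, where a gap of a few units makes a large ratio. Brighter accessory genes had ratios such as 0.16 for Ndufa3, which read 3487 and 3447, and 0.00 for Ndufa13, which held the same rank in both samples, so that quantile normalization gave it equal levels.

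Complex II was represented by Sdhb and Sdhc, since Sdhd was not detected. Sdhc, a membrane anchor of succinate dehydrogenase, read 1306 in WT and 964.9 in KO. Its ratio of -0.29, 1.22-fold lower in KO, was the lowest among members in the brightest 25% of detected genes. Sdhb, the iron-sulfur subunit, gave no clear direction. Its probes read 415.1 and 399.4, a ratio of 0.09, and 279.0 and 253.5, a ratio of -0.10.

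Complex III had 7 of 9 genes detected, with 5 ratios above 0 and a median of 0.05, which was -0.10 under median scaling and then 0.03 above the median of all genes. Uqcrfs1, the Rieske iron-sulfur protein, and Uqcrq were not detected. Uqcrb, a small subunit at the coenzyme Q side, read 314.9 in WT and 345.4 in KO, a ratio of 0.31 and the only one in this complex past the SD per probe. Cyc1, the cytochrome that hands electrons to cytochrome c, had a ratio of 0.13 (-0.06 under median scaling). The core proteins Uqcrc1 and Uqcrc2 stood at 0.08 and -0.08, the first below 0 under median scaling, and Uqcrh and Uqcr11 at 0.03 and -0.03, both below 0 under median scaling. Cycs, the soluble electron carrier between complexes III and IV, read 130.7 and 127.3, a ratio of -0.18 near the background level that was -0.06 in the authors' values.

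**Figure D2:**
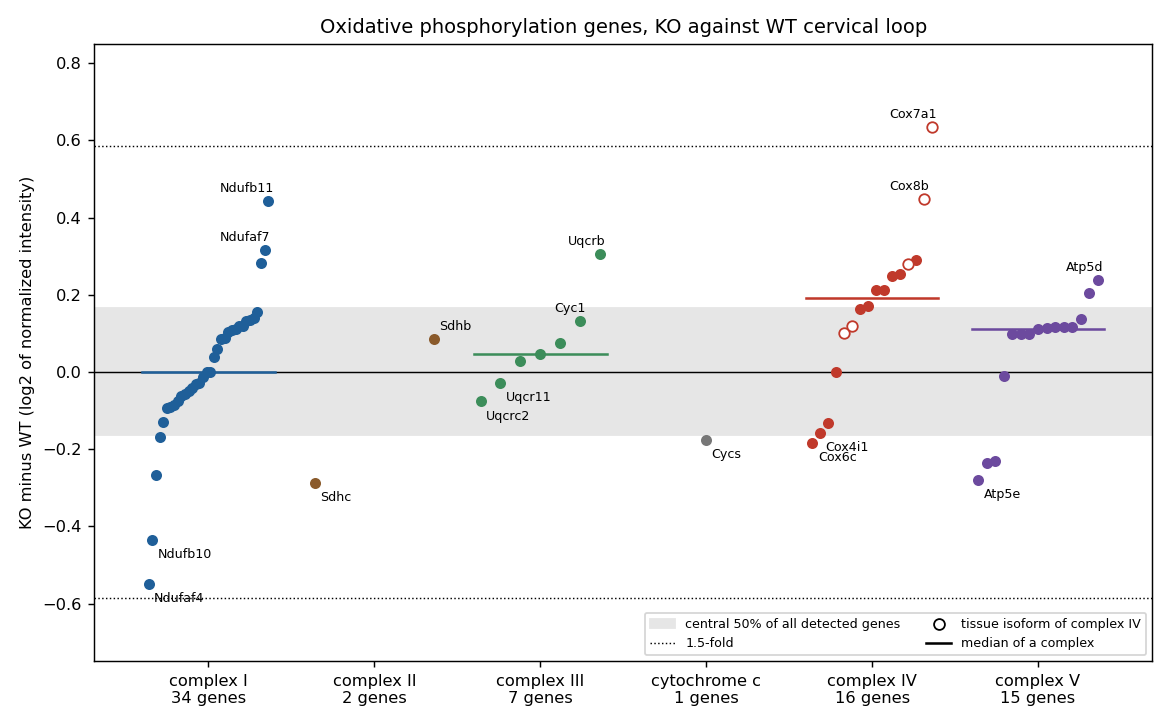
Ratio of each detected member (KO minus WT, log2 of normalized intensity, 1 sample per genotype) by complex, with open circles for tissue isoforms of complex IV, a bar for the median where a complex has over 2 genes, the grey band for the central 50% of all detected genes and dotted lines at 1.5-fold. The median was 0.00 for complex I, 0.05 for complex III, 0.19 for complex IV and 0.11 for complex V, and those of complexes I, III and V fell below 0 under median scaling.

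Complex IV, cytochrome c oxidase, had the highest median of the complexes in the plot of ratios. Of its 19 listed genes 16 were detected, and 12 had ratios above 0, 3 below and 1 at 0.00. The median was 0.19 and stayed above 0 under median scaling (0.05) and in the authors' normalized values (0.16). Ndufa4 is counted here, since the protein is a subunit of complex IV despite its symbol. With it under complex I, a placing tried after the data were seen, the median of complex IV was 0.17.

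Most bright ubiquitous subunits read much the same in both samples before normalization and so ranked higher in KO. Ndufa4 read 5132 in WT and 5477 in KO (ratio 0.25) and Cox5a, which lies on the matrix side, read 2304 and 2425 (0.25). Cox8a, a membrane-spanning subunit, read 4443 and 4560 (0.21). For Cox6a1 separate probes gave 0.21 and 0.20, from 4963 and 5084 units and from 2433 and 2487. Under median scaling these 4 genes stayed above 0, between 0.06 and 0.12. Cox7c had a ratio of 0.16, and Cox6b1 had 0.17 and 0.03 from its probes. The opposite direction was seen in Cox4i1, the largest subunit encoded in the nucleus, with 4274 in WT and 3368 in KO, a ratio of -0.16. Cox6c read 580.4 and 476.8 (-0.18), and the supercomplex factor Cox7a2l read 2130 and 1723 (-0.13). Cox5b held the same rank in both samples, which gives a ratio of 0.00, and Cox7b was not detected.

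Several subunits of complex IV exist as a ubiquitous form and as forms made in particular tissues. All 5 detected tissue isoforms had ratios above 0, with a median of 0.28 (0.16 in the authors' normalized values). The 10 ubiquitous subunits detected had 7 ratios above 0 and a median of 0.19. In the authors' values their median was 0.17, so the isoforms were not the higher group there. Under median scaling Cox4i2 was at -0.02 while the other isoforms stayed above 0. Cox7a1, the heart and skeletal muscle form, read 139.2 in WT and 167.2 in KO. Its ratio of 0.63 was the highest of all members, or 1.55-fold, and it was 0.28 in the authors' values. Cox7a2, its counterpart in other tissues, read 149.1 and 161.3, with a ratio of 0.29 (0.13 in the authors' values).

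Cox8b, another muscle form, read 126.9 in WT and 142.7 in KO, a ratio of 0.45 that was 0.16 in the authors' values, below the 0.21 of its ubiquitous counterpart Cox8a. Cox6a2, the muscle form of Cox6a1, read 214.5 and 217.6 (0.12). Cox6b2, known from testis, read 292.1 and 315.7 (0.28), and Cox4i2, known from lung, read 354.8 and 351.1 (0.10). Cox7b2 and Cox8c, the other tissue forms on the array, were not detected. The tissue form was the higher of the ratios in the Cox4i, Cox6b, Cox7a and Cox8 pairs and the lower in the Cox6a pair, all with background correction, and no pair was tested.

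The promoters of Cox7a1, which had the highest ratio, and of the Cox8 pair, a muscle form and its ubiquitous counterpart, are printed. The windows are chr7:30183921-30184220 on the plus strand for Cox7a1, chr7:140900397-140900696 on the minus strand for Cox8b and chr19:7217567-7217866 on the minus strand for Cox8a, all from RefSeq in GRCm38.p6. Capitals mark CCGGAAG, written CTTCCGG where it lies on the other strand, the E-box CAGCTG and the TATA box TATAAA, and the last pair of motifs was added after the values were seen.
Cox7a1: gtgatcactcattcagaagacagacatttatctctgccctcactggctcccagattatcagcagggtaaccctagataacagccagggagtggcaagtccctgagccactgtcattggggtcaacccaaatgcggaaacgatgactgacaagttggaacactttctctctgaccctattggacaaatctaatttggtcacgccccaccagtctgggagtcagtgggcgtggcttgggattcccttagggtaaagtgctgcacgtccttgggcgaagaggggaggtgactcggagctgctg
Cox8b: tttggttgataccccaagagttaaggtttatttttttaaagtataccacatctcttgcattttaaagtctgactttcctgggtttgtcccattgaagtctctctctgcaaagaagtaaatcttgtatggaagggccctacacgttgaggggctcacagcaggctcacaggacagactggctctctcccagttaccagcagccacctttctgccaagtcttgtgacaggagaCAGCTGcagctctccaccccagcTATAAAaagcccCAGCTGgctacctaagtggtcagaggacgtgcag
Cox8a: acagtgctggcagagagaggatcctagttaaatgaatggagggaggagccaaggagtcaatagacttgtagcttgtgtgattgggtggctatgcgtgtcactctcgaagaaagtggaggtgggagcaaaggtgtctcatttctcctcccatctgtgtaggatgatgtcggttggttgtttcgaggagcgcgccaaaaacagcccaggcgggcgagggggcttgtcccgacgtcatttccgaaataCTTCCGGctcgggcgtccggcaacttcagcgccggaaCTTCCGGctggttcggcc

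Cox8b has 2 E-boxes of this form with the letters TATAAA between them. The TATAAA and the E-box after it lie in the last 50 bases of the window, past the RefSeq start. Cox8a has 2 ETS cores, and neither Cox7a1 nor its ubiquitous counterpart Cox7a2 has any of the motifs searched. Among all windows CAGCTG was in 18.3% and TATAAA in 15.7%, and among members in 7.04% and 9.86%.

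Skeletal muscle markers were read beside the muscle isoforms. Of 16 markers listed 12 were detected, 10 of them with ratios above 0 and a median of 0.32, or 0.18 with the values normalized by the authors. The summed level of the 12 was 10.52 in WT and 10.82 in KO. Mb, the oxygen-binding myoglobin, read 213.0 and 286.9 and had the highest ratio of the list at 0.77 (0.50 in the authors' values). With its 2 detected probes averaged Mb stood at 0.55, just below Tcap at 0.56. Actn3, of fast fibres, had the lowest at -0.60 (-0.22 in the authors' values). Ckm, Tcap and Myoz1 were detected in KO only, and without them 7 of 9 lay above 0. The myosin heavy chains Myh1 and Myh4 and the calcium store protein Casq1 were not detected, and none of the 7 markers of slow and cardiac muscle was. The part of muscle tissue in the ratios of Cox6a2, Cox7a1 and Cox8b was not tested.

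**Figure D3:**
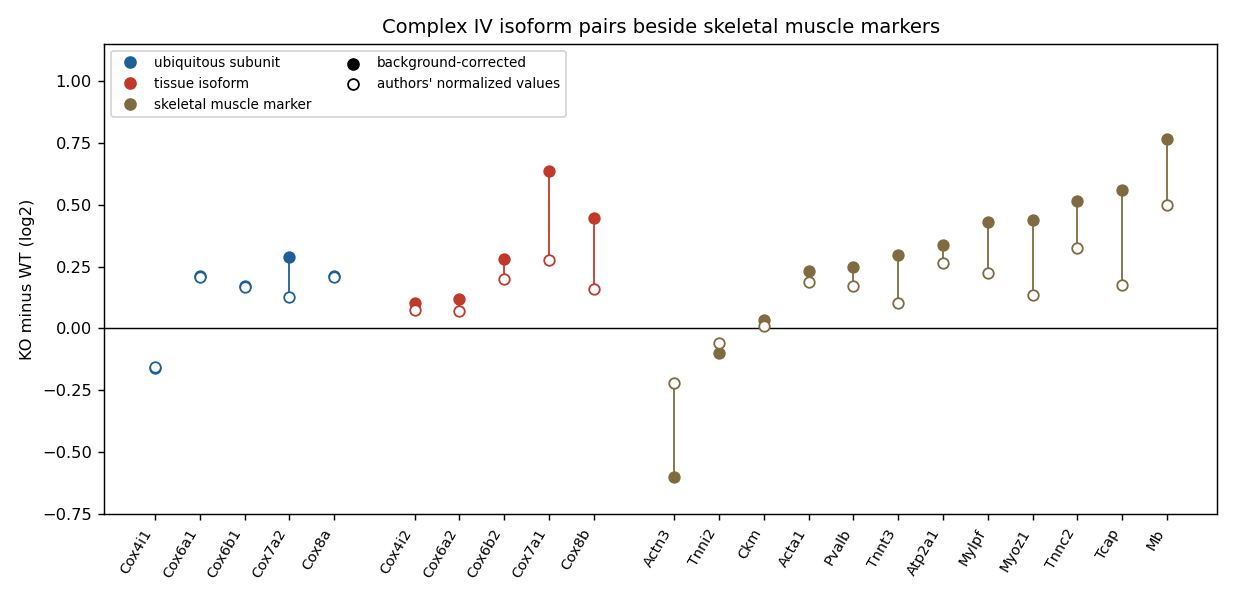
Ratios (KO minus WT, log2, 1 sample per genotype) of ubiquitous subunits of complex IV (blue), their tissue isoforms (red) and skeletal muscle markers (brown), from background-corrected values (filled circle) and from the authors' normalized values (open circle). Cox7a1 stood at 0.63 and 0.28 and Cox8b at 0.45 and 0.16, while Mb stood at 0.77 and 0.50, and under median scaling Cox4i2 moved to -0.02.

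Complex V, the ATP synthase, had 15 of 16 genes detected, 11 above 0 and 4 below. Its median of 0.11 was -0.02 under median scaling and then 0.11 above the median of all genes. The genes of the c ring, the rotor that protons turn, encode the same mature protein and were nearly equal in ratio, with 0.12 for Atp5g1, 0.11 for Atp5g2 and 0.11 for Atp5g3, and with -0.05, -0.02 and -0.02 under median scaling. Their raw intensities were 3544 in WT and 3378 in KO, 511.3 and 502.8, and 11103 and 10761.

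The 5 genes of the catalytic head of complex V had 3 ratios above 0 and 2 below. They ran from -0.28 to 0.24, beside an SD per probe of 0.22, and differences between these genes were not tested. Atp5a1, dim at 160.5 in WT and 163.3 in KO, had a ratio of 0.10 (0.05 in the authors' values). Atp5b, the catalytic beta subunit, had a ratio of 0.12 (0.02 under median scaling). Atp5c1, the gamma subunit that forms the central shaft, read 3971 in WT and 3013 in KO, a ratio of -0.23 and 1.18-fold lower. Atp5d, the delta subunit on the same shaft, read 1063 and 1099, a ratio of 0.24. Atp5e, the epsilon subunit, was dim at 128.6 and 123.1, and its ratio of -0.28 was -0.09 in the authors' values. Of the stalk and membrane genes, Atp5h, of the peripheral stalk, read 882.6 and 686.4, a ratio of -0.23. Atp5j, also of that stalk, gave 0.20 from a probe at 4504 and 4587 units and 0.03 from a dimmer one, and Atp5o, at the top of the stalk, gave 0.14. Atp5k was not detected.

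**Figure D4:**
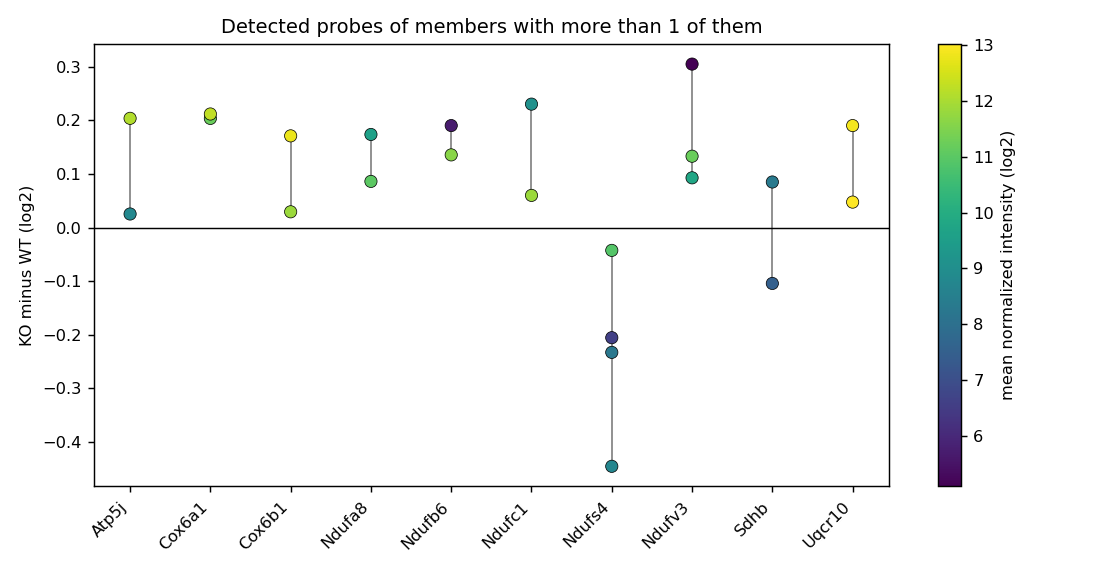
Ratio (KO minus WT, log2, 1 sample per genotype) from each detected probe of the 10 members with more than 1, coloured by the probe's mean level, with a line joining probes of the same gene. In these quantile-normalized values probes lay on the same side of 0 in each gene but Sdhb, and those of Ndufs4 spanned the widest gap, 0.40 between the highest and the lowest.

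The plot of probes by gene shows how far probes of the same gene differed within the members, without error between samples. For these 10 genes the pairs of brightest probes detected in both samples differed by a median of 0.14 and at most 0.40. Their SD per probe was 0.12, smaller than the 0.22 of all genes that is used as the SD per probe elsewhere. Ndufa8 gave 0.09 and 0.17, Ndufb6 gave 0.14 and 0.19, and Uqcr10 gave 0.05 and 0.19. Ndufc1 gave 0.06 and 0.23, and Ndufv3 gave 0.13, 0.09 and 0.31, the last from a dim probe detected in KO only.

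Genes outside the complexes that feed or govern the pathway were read from lists. The tricarboxylic acid cycle and pyruvate dehydrogenase had 14 of 19 genes detected, 10 above 0 and a median of 0.10 (6 above 0 under median scaling, where 10 lay above the median of all genes). Pdhb, of pyruvate dehydrogenase, was the highest at 0.47, and Idh2, the mitochondrial NADP-dependent isocitrate dehydrogenase, the lowest at -0.42. Glycolysis had 15 of 20 detected, 7 above 0 and a median of -0.07, which was above 0 at a detection limit of 0.05. Its range ran from -0.50 for the glucose transporter Slc2a1 to 0.58 for Pgam1. Past 0.32 in either direction were 4 of the 14 cycle genes and 3 of the 15 glycolysis genes, beside 23.2% of all genes.

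Of 23 regulators of mitochondrial genes 16 were detected, 9 with ratios above 0 (7 under median scaling, where 10 lay above the median of all genes) and a median of 0.05. Nrf1, the respiratory factor whose motif is named above, read 744.1 in WT and 636.8 in KO, a ratio of -0.08. The coactivator genes Ppargc1a and Ppargc1b had ratios of 0.06 and -0.08, and Gabpa, the DNA-binding part of an ETS factor, was detected in WT only, at 131.7 and 122.0. Tfam, which packages mitochondrial DNA, gave no clear direction, with 0.18 from the brighter of its 2 detected probes and -0.11 with the probes averaged. The nuclear receptor Esrra stood at 0.23. The highest was Polg, the mitochondrial DNA polymerase, which read 152.4 and 174.8, a ratio of 0.48 (0.23 in the authors' values).

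**Figure D5:**
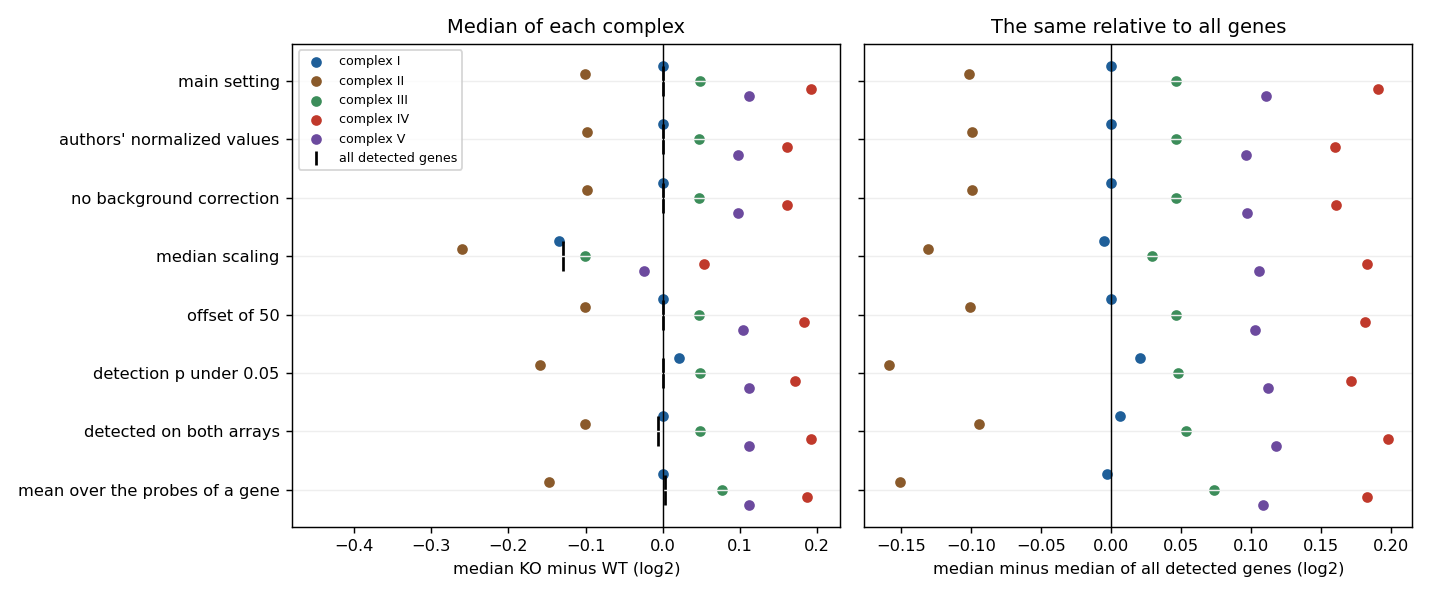
Median ratio (KO minus WT, log2) of complexes I to V under the main setting and each alternative, with a black tick for the median of all detected genes at left, and the same after subtracting that median at right. Relative to all genes complex IV lay highest and complex II, with 2 genes in the main setting, lowest in every setting drawn, and median scaling moved the medians of complexes I, III and V below 0.

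The complexes kept the same order by median in every setting of the plot of settings. Complex IV lay between 0.16 and 0.20 above the median of all genes in the settings drawn, complex V between 0.10 and 0.12, complex III between 0.03 and 0.07 and complex I between -0.01 and 0.02. The interval of a difference between complexes cannot be given, because subunits measured on the same pair of samples are no replicates of the genotype.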

How the data were processed

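RNA from 1 WT and 1 KO sample was read on Illumina bead arrays, in GenomeStudio per the submitters' processing notes. The authors deposited a linear intensity per probe, without background subtraction or normalization. They also deposited a detection p-value beside each intensity, which carries no sample name and was taken to belong to the intensity column before it. A second deposited set of intensity values, normalized between arrays by the authors, was used as an alternative. No source used here says whether a column is 1 array or a mean, although the design text gives n = 3. The deposited linear intensity was background-corrected with neqc of limma 3.58.1 (R 4.3.3; normexp with negative controls inferred from the detection p-values, an offset of 16, quantile normalization, log2). Both steps weigh most on dim probes. The platform annotation named 23978 of the 25697 probes and left 1719 unnamed. For each gene the brightest probe was taken among those with a detection p under 0.01 in at least 1 sample. A gene detected in 1 sample only was given a bound against the lowest detected level of the other. Precision is limited by the number of arrays. The steps were tested on simulated data.

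No test between groups was made. Counts past 1.5-fold and medians were set beside those of all detected genes. The members and gene lists were chosen with earlier results of these data known. Genes named were, per complex, the 3 genes at either end of the ratios (detected in both samples), members past 1.5-fold or detected in 1 sample only, tissue isoforms with their counterparts, the succinate dehydrogenase and cytochrome c genes, the 5 brightest members, members with more than 1 detected probe, and the highest and lowest ratio of the lists for assembly, the tricarboxylic acid cycle, glycolysis and regulators. Regulators were named from their list, and other members named were chosen after their values were seen. Alternatives were the authors' normalized values, no background correction, median scaling, an offset of 50, a detection limit of 0.05, detection in both samples, the mean over the probes of a gene, a lower fold limit (0.32 on the log2 scale) and other sets of members. Array values carry no genome build, and promoter windows are from RefSeq, GRCm38.p6.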

Additional observations from a re-analysis of the deposited data

How the results depend on the processing

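The median ratio of the members lay between -0.06 and 0.10 over the settings tried, and was below 0 with median scaling alone, where it was 0.06 above the median of all genes. The share of members above 0 was 29.3% with median scaling. The count past 1.5-fold was 0 in the authors' normalized values, without background correction and with an offset of 50, 0 without members under 200 intensity units (chosen after seeing the data), and 5 at the lower limit of 0.32 on the log2 scale. For all genes, 253 were past 1.5-fold higher and 245 lower, against 23 and 36 in the authors' values, 59 and 73 with an offset of 50, and 171 and 418 with median scaling. Of the 46 members named by rule, 14 changed sign in at least 1 setting, all 14 with median scaling and 1 also in another setting, and none of the 17 at or past the SD per probe did. The cause of these changes was not tested. Dim probes moved most, with Cox7a1, Cox8b, Ndufb10 and Ndufb11 moving by the SD per probe or more. No replicate could be left out with 1 sample per group. No paired analysis was possible because there was 1 sample per group and no test.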

Other observations

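Assembly factors and carriers outside the member rule gave further values. Of 47 genes for the assembly and translation of the complexes 33 were detected, 23 with ratios above 0 (12 under median scaling, where 24 lay above the median of all genes) and a median of 0.05. Surf1, an assembly factor of complex IV, had the lowest ratio at -0.62 (-0.35 in the authors' normalized values). It read 226.9 in WT and 172.9 in KO before normalization. Acad9, which acts in the assembly of complex I, had the highest at 0.57 (0.30 in the authors' values), from 163.8 and 195.7. Each had 2 detected probes, which averaged -0.37 for Surf1 and 0.37 for Acad9. Neither was then at the end of the list. Tmem186, another complex I assembly factor, read 448.4 and 321.5 (-0.48), and Uqcc2, which acts in the assembly of complex III, read 1535 and 1748 (0.39). These last 2 genes were named after their values were seen.

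Of 20 carriers and import genes 13 were detected, 5 above 0 with a median of -0.08, which was 0.02 when the probes of a gene were averaged. Slc25a5, an ADP/ATP carrier, read 7553 in WT and 5844 in KO (-0.22), and Tomm22, of the outer membrane translocase, read 744.1 and 588.3 (-0.23). Ckmt1, a mitochondrial creatine kinase, read 4012 and 4294 (0.29). These genes were also named after their values were seen.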
